A study of Mus musculus with 9 samples.

Results

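The mouse genome encodes 10 Frizzled receptors, Fzd1 to Fzd10, and all 10 were found by symbol among the 23453 gene symbols of a bulk RNA-seq count table. The table holds 9 libraries from 3 states of cultured mouse pluripotent cells, with 3 replicates per state. EpiLCs (epiblast-like cells) were made from naive ESCs over 48 h in N2B27 medium that held FGF2, Activin A and a serum replacement (KSR, 1%). aEpiLCs, which model the anterior epiblast, were EpiLCs kept for another 24 h in basal N2B27 medium, for which the study's methods also list KSR. pEpiLCs, which model the posterior epiblast, were EpiLCs kept for the same 24 h with Activin A and CHIR99021, an inhibitor of the kinase GSK3 that activates the Wnt pathway inside the cell, below the receptors. The methods list KSR (1%) in N2B27 for pEpiLCs as well. The cells are described as wild-type and no transgene or deletion is named for these libraries. pEpiLCs differ from aEpiLCs in both agents, so effects of Activin A and of CHIR99021 cannot be told apart. Against EpiLCs, both later states also had 24 h more of culture and no listed FGF2, and aEpiLCs no listed Activin A. Effects of these changes cannot be told apart either. No label says that replicates came from separate cultures, so p-values measure the spread between these libraries, which may be technical.

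Frizzled proteins are membrane receptors with an extracellular cysteine-rich domain that binds Wnt ligands. With Lrp5 or Lrp6 as co-receptor, a Wnt bound to Frizzled recruits Dishevelled, which frees beta-catenin from the Axin, Apc and Gsk3 complex so that it can act with Tcf and Lef factors on target genes. Frizzled receptors also act without beta-catenin, with Ror, Vangl, Celsr and Prickle proteins, in planar polarity and cell movement. Wnt signalling through this family is needed for the primitive streak to form in the posterior epiblast.

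The deposited expected counts summed to between 20560564 and 23417917 per library. A level of 3 counts, taken as the detection limit, corresponded to 0.131 to 0.144 CPM (counts scaled to library size, TMM-normalized over the 9 libraries), and every Frizzled gene was above it in every library. The epiblast gene Pou5f1 had 792 to 1127 CPM over the 9 libraries. pEpiLC replicate 1 stood apart from the other 8 libraries. Its 6 nascent mesoderm and endoderm markers (Mesp1, Tbx6, Msgn1, Lhx1, Foxa2, Sox17) summed to 361 CPM, against 44.7 and 36.4 CPM in pEpiLC replicates 2 and 3, 1.02 to 1.96 CPM in EpiLCs and 0.452 to 0.938 CPM in aEpiLCs. Between it and either other pEpiLC library 324 and 331 genes differed by over 4-fold, where other pairs of replicates gave 57 to 76. Values without it are therefore given for the Frizzled genes, and for the pathway genes described below where leaving it out changed a call or moved the mean of pEpiLCs by over 1.5 times. The 5 neural markers Sox1, Pax6, Tubb3, Neurog2 and Nes summed to 387 to 459 CPM in aEpiLCs, above the 135 to 168 CPM of EpiLCs and the 154 to 221 CPM of pEpiLCs, and their part in the differences between states was not tested. Most of these sums came from Nes and Tubb3, whose pEpiLC levels lay on opposite sides of their EpiLC levels. Nes had 80.7 to 109 CPM in EpiLCs, 292 to 335 CPM in aEpiLCs and 148 to 205 CPM in pEpiLCs, and Tubb3 had 52.3 to 60.5, 92.4 to 119.5 and 6.13 to 15.6 CPM. Pax6 had 0.509 to 0.653, 1.83 to 2.16 and 0.0466 to 0.131 CPM in the same order, Sox1 had 1.06 to 1.35, 0.543 to 1.47 and 0 to 0.326 CPM, and Neurog2 was at or under 0.322 CPM in every library. Naive markers summed to 36.8 to 40.3 CPM in EpiLCs, 20.1 to 22.1 CPM in aEpiLCs and 24.3 to 28.1 CPM in pEpiLCs. Extraembryonic endoderm markers summed to 126 to 232 CPM over the 9 libraries. Of these 8 genes 6 were in the table, and 3, 3 and 2 had over 1 CPM in every EpiLC, aEpiLC and pEpiLC library. Sox7 was at or under 3 counts in aEpiLCs and pEpiLCs. Feeder fibroblast markers summed to 16.3 to 34.1 CPM and trophoblast markers to 4.34 to 10.5 CPM over the 9 libraries.

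The promoters of 3 members are shown because these members moved most or were the most abundant. Of the 10 members, 6 (Fzd1, Fzd4, Fzd5, Fzd7, Fzd9 and Fzd10) had a RefSeq promoter on GRCm38.p6, 250 bases before to 50 after the start site. CTTTG, the core of the sequence that Tcf and Lef factors recognise, was searched on both strands, together with the longer CTTTGA, whose matches are all matches of CTTTG too. CTTTG was in 3 of these 6 promoters and in 53.9% of all 32851 promoters, and CTTTGA was in 1 of 6, that of Fzd1, and in 16.0% of all. The bases upstream of the Fzd1 and Fzd7 start sites, and 29 bases around the match of Fzd10, are printed in the direction of the gene with CTTTG or its reverse complement in capitals. The Fzd10 match lies 138 bases before the RefSeq start site and inside the exon that GENCODE gives.
Fzd10 (chr5:128600956-128600984, plus strand): ggaagaagaggcCAAAGtttgcgcgctga
Fzd1 (chr5:4758217-4758466, minus strand): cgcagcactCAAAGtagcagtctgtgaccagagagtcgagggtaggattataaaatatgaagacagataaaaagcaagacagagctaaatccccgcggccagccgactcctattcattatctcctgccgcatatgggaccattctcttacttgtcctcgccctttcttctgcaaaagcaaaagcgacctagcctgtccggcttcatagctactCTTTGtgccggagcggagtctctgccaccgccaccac
Fzd7 (chr1:59481897-59482146, plus strand): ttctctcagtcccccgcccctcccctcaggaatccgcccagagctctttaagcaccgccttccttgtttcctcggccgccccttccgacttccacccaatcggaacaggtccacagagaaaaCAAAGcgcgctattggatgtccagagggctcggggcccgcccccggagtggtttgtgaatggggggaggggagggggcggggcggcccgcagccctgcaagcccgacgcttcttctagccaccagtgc

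The windows also differed in base composition. The 300-base windows were 77.7% G and C in Fzd10, 66.7% in Fzd7 and 54.0% in Fzd1, against a median of 52.7% over all promoters. Whether any factor was bound at these letters was not measured.

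Fzd10 had the largest fold changes of the 10 members in both comparisons of pEpiLCs. Together with Fzd4 and Fzd9 it forms a branch of the family, and in the mouse embryo it is known from the primitive streak. The gene (ENSMUSG00000081683.5) spans chr5:128600844-128604093 on the plus strand of GRCm38, with a single coding exon. Fzd10 had 7.82, 8.42 and 8.44 CPM in the 3 EpiLC libraries, 4.92, 1.94 and 2.48 CPM in aEpiLCs, and 114, 44.0 and 47.7 CPM in pEpiLCs. No library of one state overlapped another state, and pEpiLC replicate 1 had 2.48 times the mean of replicates 2 and 3. pEpiLCs had 21.9-fold more Fzd10 mRNA than aEpiLCs (log2 fold change 4.45 ± 0.50 SE, n = 3 per state, edgeR adjusted p = 0.00162) and 8.31-fold more than EpiLCs (3.05 ± 0.38, adjusted p = 0.000895). In aEpiLCs Fzd10 fell below the EpiLC level (log2 fold change -1.42 ± 0.25, adjusted p = 0.000501). Without pEpiLC replicate 1 the log2 fold change was 3.87 against aEpiLCs (edgeR adjusted p = 4.73e-07) and 2.47 against EpiLCs (adjusted p = 3.29e-11). The mesoderm and endoderm markers were highest in the same pEpiLC library as Fzd10, and their part in the Fzd10 level was not tested. In bulk RNA, more cells that express a gene and more RNA per cell cannot be told apart.

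**Figure D1:**
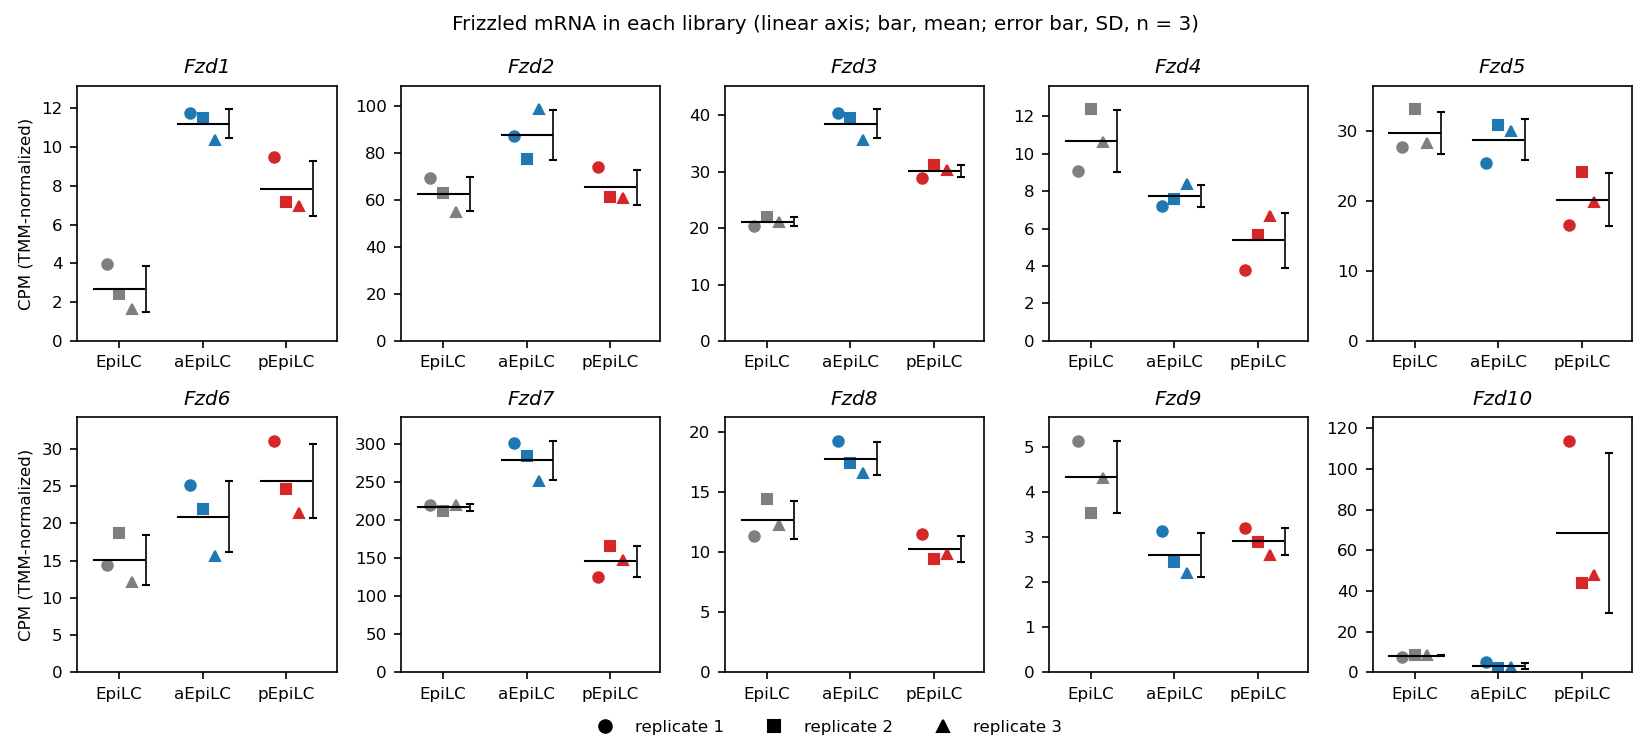
CPM of each Frizzled gene (linear y axis from 0, a separate scale per gene) in the 3 libraries of each state, marked by replicate, with the mean as a line and the SD (n = 3) as an error bar beside it. Fzd10 reached 114, 44.0 and 47.7 CPM in pEpiLCs and stayed at or under 8.44 CPM in the 6 other libraries.

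A transcript annotated next to Fzd10 was also highest in pEpiLCs. Fzd10os, named as the opposite-strand transcript, spans chr5:128579130-128600687 in RefSeq and ends 156 bases before the GENCODE start of Fzd10. It had 3, 5 and 10 counts in the EpiLC libraries, 9, 2 and 5 counts in aEpiLCs, and 67, 38 and 51 counts in pEpiLCs. Its pEpiLC libraries did not overlap those of the other states. It was too low to be tested between aEpiLCs and EpiLCs, and in the comparisons with pEpiLCs it passed the filter on low counts only through pEpiLCs, so no test of it is given. Whether reads were counted by strand is not stated, so reads from the 2 transcripts near the shared start region could not be told apart by strand.

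Fzd4 and Fzd9, the other members of this branch, had lower mean levels in both later states than in EpiLCs. Fzd4, which is also the receptor for Norrin in the growth of retinal vessels, lies at chr7:89404355-89413134. It had 9.06, 12.4 and 10.6 CPM in EpiLCs, 7.22, 7.60 and 8.37 CPM in aEpiLCs, and 3.78, 5.65 and 6.66 CPM in pEpiLCs, in 3 ranges that did not overlap. Fzd4 fell from EpiLCs to pEpiLCs (log2 fold change -0.998 ± 0.23, edgeR adjusted p = 0.0101) and to aEpiLCs (-0.48, adjusted p = 0.0130), whereas the difference between the later states did not pass (-0.54, 95% interval -1.04 to -0.04, adjusted p = 0.138). The pEpiLC value lay just under the limit of 1 set for a call, and Fzd4 was called in 9 of 15 settings of the fit, of which 14 were alternatives. The fall in aEpiLCs did not pass without EpiLC replicate 2 or with all 9 libraries in 1 fit (edgeR adjusted p up to 0.0797). Fzd9, known from the hippocampus and from bone-forming cells, lies at chr5:135248938-135251230 and was weakly expressed, with 3.54 to 5.13 CPM in EpiLCs, 2.21 to 3.14 CPM in aEpiLCs and 2.61 to 3.21 CPM in pEpiLCs. Both later states lay below the lowest EpiLC library and overlapped each other. The fall passed in aEpiLCs (log2 fold change -0.75, edgeR adjusted p = 0.0105), but not without EpiLC replicate 1 (adjusted p = 0.0543), and in pEpiLCs the value was -0.58 (95% interval -1.06 to -0.10, adjusted p = 0.0531) and passed in 4 of 15 settings.

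Fzd1, Fzd2 and Fzd7 form a second branch, whose members overlap in function in heart and palate development. Fzd7 (chr1:59482424-59486955) was the most abundant Frizzled mRNA in each state. It had 220, 211 and 219 CPM in EpiLCs, 301, 284 and 251 CPM in aEpiLCs, and 125, 165 and 147 CPM in pEpiLCs. The 3 states did not overlap, with aEpiLCs highest and pEpiLCs lowest. Fzd7 rose in aEpiLCs (log2 fold change 0.35 ± 0.07, edgeR adjusted p = 0.000980) and fell in pEpiLCs (-0.58 ± 0.09, adjusted p = 0.00272), so that the later states differed by -0.94 (± 0.11, adjusted p = 0.00210). It passed the limit for a call between the later states only without pEpiLC replicate 2 or without aEpiLC replicate 3, and without pEpiLC replicate 1 the value was -0.84.

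Fzd1 (chr5:4753839-4758035) was low in EpiLCs and higher in both later states. It had 3.98, 2.42 and 1.65 CPM in EpiLCs, 11.8, 11.5 and 10.3 CPM in aEpiLCs, and 9.48, 7.14 and 6.94 CPM in pEpiLCs. Fzd1 rose 4.14-fold in aEpiLCs (log2 fold change 2.05 ± 0.23, edgeR adjusted p = 8.83e-06) and 2.92-fold in pEpiLCs (1.55 ± 0.31, adjusted p = 0.00650). All aEpiLC libraries were above all pEpiLC libraries, but the difference did not pass the test (-0.52, 95% interval -0.90 to -0.14, adjusted p = 0.0712), although it did in 3 of 15 settings, with DESeq2 (adjusted p = 0.0492), with limma voom and without pEpiLC replicate 1 (-0.68, edgeR adjusted p = 0.00405).

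Fzd2 (chr11:102604396-102608058) had 69.4, 63.0 and 54.9 CPM in EpiLCs, 87.1, 77.5 and 98.6 CPM in aEpiLCs, and 74.0, 61.3 and 60.7 CPM in pEpiLCs. aEpiLCs were above every other library, and the other two states overlapped. Fzd2 rose in aEpiLCs (log2 fold change 0.48, edgeR adjusted p = 0.00123) and was lower in pEpiLCs than in aEpiLCs (-0.43, adjusted p = 0.0444), a difference that did not pass in 5 of the 6 fits with 1 library left out. Against EpiLCs the pEpiLC value was 0.06 (95% interval -0.20 to 0.33, adjusted p = 0.677).

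Fzd5 and Fzd8 form the third branch. Fzd5 is needed for vessels of the yolk sac and for the eye, and the Wnt-binding domain of Fzd8 served for the first structure of a Wnt with its receptor. Fzd5 (chr1:64730558-64737751) had 27.7, 33.1 and 28.2 CPM in EpiLCs, 25.4, 30.8 and 30.0 CPM in aEpiLCs, and 16.6, 24.1 and 19.8 CPM in pEpiLCs. All pEpiLC libraries were below all others, and EpiLCs and aEpiLCs overlapped. Fzd5 fell in pEpiLCs against EpiLCs (log2 fold change -0.56 ± 0.15, edgeR adjusted p = 0.0177), but not past the test without pEpiLC replicate 3 or EpiLC replicate 2 (adjusted p up to 0.0744). Its value was -0.52 against aEpiLCs (adjusted p = 0.0550), a difference that passed in 7 of 15 settings (adjusted p from 0.0164 to 0.182), and -0.06 between aEpiLCs and EpiLCs (95% interval -0.27 to 0.15, adjusted p = 0.634). Gm38058, on the opposite strand, overlaps its exons, and 13.9% of the 150-base stretches of the Fzd5 transcript also occur in that gene, so counts of Fzd5 are uncertain to that extent.

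Fzd8 (on chromosome 18) had 11.4, 14.4 and 12.2 CPM in EpiLCs, 19.3, 17.5 and 16.6 CPM in aEpiLCs, and 11.5, 9.47 and 9.83 CPM in pEpiLCs. The aEpiLC libraries were the 3 highest of the 9. Fzd8 rose in aEpiLCs (log2 fold change 0.47, edgeR adjusted p = 0.00494) and was lower in pEpiLCs than in aEpiLCs (-0.80 ± 0.13, adjusted p = 0.00772). Against EpiLCs it had a value of -0.31 in pEpiLCs (95% interval -0.65 to 0.03, adjusted p = 0.119), and -0.40 without pEpiLC replicate 1 (adjusted p = 0.0226), 1 of the 2 settings of 15 in which it passed.

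Fzd3 and Fzd6 form the fourth branch and are best known for planar polarity, in the closure of the neural tube, in axon guidance and in the orientation of hair follicles. Fzd3 (chr14:65192449-65262463) had 20.3, 21.9 and 21.1 CPM in EpiLCs, 40.5, 39.5 and 35.6 CPM in aEpiLCs, and 29.0, 31.2 and 30.4 CPM in pEpiLCs. Replicates lay close together and no states overlapped. Fzd3 rose in aEpiLCs (log2 fold change 0.85 ± 0.08, edgeR adjusted p = 2.54e-06) and less in pEpiLCs (0.51 ± 0.08, adjusted p = 0.00246), and the later states differed by -0.36 (± 0.09, adjusted p = 0.0297), a difference that did not pass in 4 of the 6 fits with 1 library left out.

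Fzd6 (chr15:39006034-39038188) had 14.4, 18.8 and 12.1 CPM in EpiLCs, 25.1, 21.98 and 15.6 CPM in aEpiLCs, and 31.1, 24.5 and 21.4 CPM in pEpiLCs. Every pEpiLC library was above every EpiLC library, and aEpiLCs overlapped both. Fzd6 rose in pEpiLCs (log2 fold change 0.76 ± 0.20, edgeR adjusted p = 0.0167), but not past the test without EpiLC replicate 1 or 3 (adjusted p up to 0.0633). It also rose in aEpiLCs (0.46, adjusted p = 0.0458), a difference that did not pass in 4 of the 6 fits with 1 library left out. Between the later states the value was 0.29 (95% interval -0.19 to 0.76, adjusted p = 0.383). The gene Gm26704 overlaps its exons on the opposite strand, with 0.0718% of 150-base stretches in common. No 150-base stretch of the other 8 members was found in another gene.

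**Figure D2:**
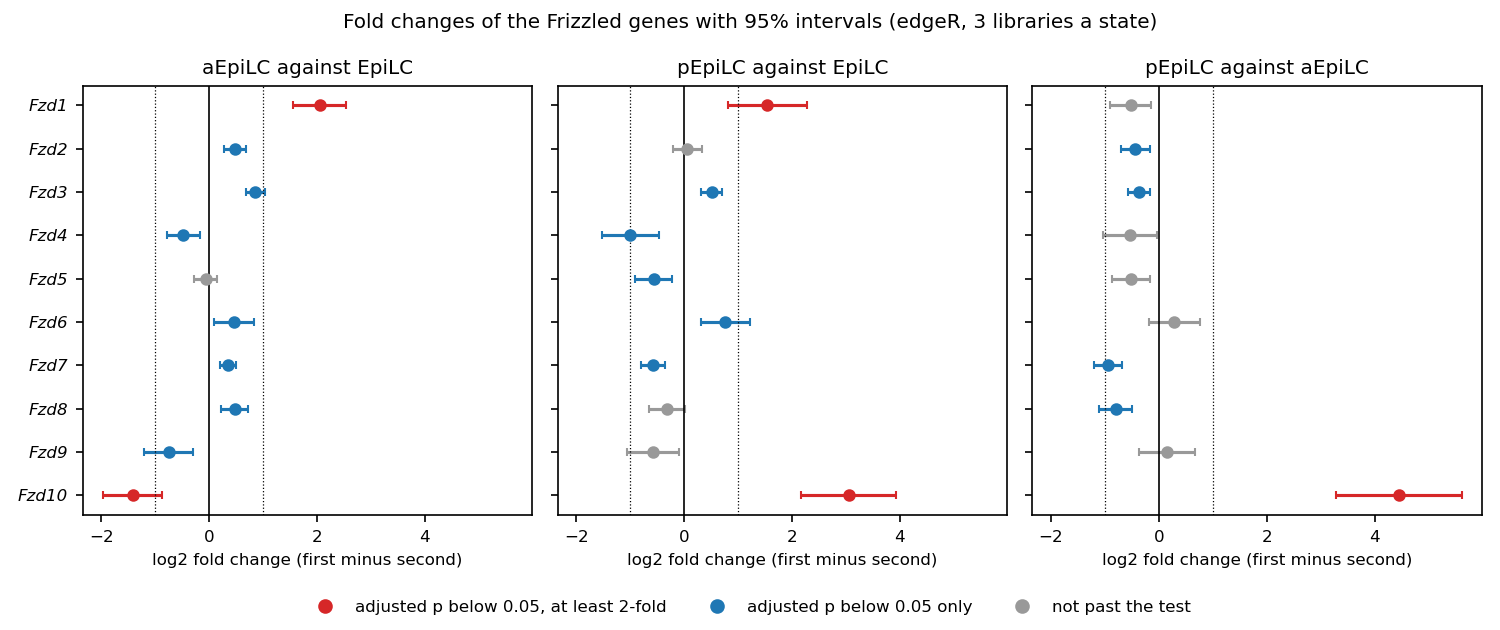
Fitted log2 fold changes (x axis, first state minus second) of the 10 Frizzled genes in the 3 comparisons, with 95% intervals. Red points passed an adjusted p of 0.05 and the limit of 1 (dotted lines), blue points only the adjusted p, and grey points neither, so that Fzd10 and Fzd1 were the only members called in any comparison.

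The family as a whole was read against all genes tested. The comparisons share libraries, since each state enters 2 of them, and are therefore not independent of each other. Between aEpiLCs and EpiLCs, 1 of the 10 members was called higher (Fzd1) and 1 lower (Fzd10), where a call needs a fold of 2 or more in either direction besides an edgeR adjusted p under 0.05. Of all 15301 genes tested 12.5% were called, 7.25% higher and 5.24% lower. Without the limit on fold change 6 members rose and 3 fell, so that 9 of 10 passed, against 46.6% of all genes, 24% rising and 22.6% falling. The median log2 fold change of the members was 0.40, and that of all genes tested was 0.0023. Between pEpiLCs and EpiLCs, 2 members were called higher (Fzd10 and Fzd1) and 0 lower, with 15.8% of 15288 genes called, 7.71% higher and 8.13% lower. There 4 members rose and 3 fell by adjusted p, against 44.2% of all genes (22.8% rising and 21.4% falling), and the medians were -0.12 for the members and 0.017 for all genes. Between pEpiLCs and aEpiLCs, 1 member was called higher (Fzd10) and 0 lower, with 7.29% of 15198 genes called, 2.55% higher and 4.74% lower. By adjusted p, 1 member rose and 4 fell (Fzd2, Fzd3, Fzd7 and Fzd8), against 15.6% of all genes (6.28% rising and 9.3% falling), and the medians were -0.48 and 0.012. At an unadjusted p below 0.05, 7 members were lower in pEpiLCs than in aEpiLCs, against 16.9% of all genes, and 4 were lower than in EpiLCs, against 25.3%. DESeq2 called 0 lower in the first comparison and 1, Fzd4, in the second. The 3 libraries of one state did not overlap those of the other for 8 of 10 members in each comparison. The share of all genes without overlap was 56.1% for aEpiLCs against EpiLCs, 58.6% for pEpiLCs against EpiLCs and 39% for pEpiLCs against aEpiLCs. Without pEpiLC replicate 1, 1 and 2 members were called for pEpiLCs against aEpiLCs and against EpiLCs.

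The members not yet given without pEpiLC replicate 1 had the same direction without it, except Fzd2 against EpiLCs. In pEpiLCs against EpiLCs, Fzd1 then had a log2 fold change of 1.39 and Fzd3 of 0.54 (edgeR adjusted p = 0.000400 and 9.65e-05). Fzd4 had -0.80, Fzd5 -0.44, Fzd6 0.61 and Fzd7 -0.48, and each of these passed by adjusted p with or without that library. Fzd9 had -0.66 (edgeR adjusted p = 0.0192), and Fzd2 had -0.04 (adjusted p = 0.747). Against aEpiLCs, Fzd2 had -0.53, Fzd3 -0.33 and Fzd8 -0.89, again with an adjusted p under 0.05 in either fit. Fzd5 had -0.39 (edgeR adjusted p = 0.0374), whereas Fzd4 (-0.34), Fzd6 (0.13) and Fzd9 (0.08) passed in neither fit.

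To compare the receptors with each other, CPM was divided by the length of exon sequence in kb that GENCODE gives each gene. In EpiLCs Fzd7 had the highest level, 47.8 CPM per kb, followed by Fzd2 with 17.04 and Fzd5 with 4.29 CPM per kb. The next 6 receptors, from Fzd6 (3.13 CPM per kb) through Fzd10, Fzd8, Fzd9 and Fzd3 to Fzd4 (1.59 CPM per kb), each overlapped the next in that order, and Fzd1 was lowest at 0.639 CPM per kb. In aEpiLCs Fzd7 (61.4 CPM per kb) and Fzd2 (24.0 CPM per kb) again led. Fzd6 and Fzd5 overlapped at 4.34 and 4.16 CPM per kb, Fzd3, Fzd8 and Fzd1 at 3.01, 2.98 and 2.67 CPM per kb, and Fzd4, Fzd9 and Fzd10 came last at 1.15, 1.13 and 0.959 CPM per kb. In pEpiLCs Fzd10 moved to second place, at 21.1 CPM per kb between Fzd7 (32.1 CPM per kb) and Fzd2 (17.8 CPM per kb), and its libraries overlapped those of both. Fzd6 followed at 5.33 CPM per kb, then Fzd5 and Fzd3 at 2.92 and 2.36, Fzd1 and Fzd8 at 1.87 and 1.72, Fzd9 at 1.27 and Fzd4 at 0.798 CPM per kb. Within both of these pairs the libraries overlapped. Fzd10 thus had rank 5 in EpiLCs, 10 in aEpiLCs and 2 in pEpiLCs, where without replicate 1 its mean was 14.1 CPM per kb and its rank 3, behind Fzd2.

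The levels per kb summed to 82.7 ± 2.45 (SD, n = 3) over the 10 members in EpiLCs, 105.8 ± 5.83 in aEpiLCs and 87.3 ± 11.2 in pEpiLCs. Without Fzd10 the sums were 80.2 ± 2.54, 104.8 ± 5.40 and 66.2 ± 2.94 CPM per kb, so that the pEpiLC libraries lay below all EpiLC libraries without Fzd10 and overlapped them with it. Fzd7 made up 57.9% of the sum in EpiLCs, 58.0% in aEpiLCs and 27.5, 43.8 and 41.2% in the 3 pEpiLC libraries. Fzd10 made up 3.06% in EpiLCs, 0.894% in aEpiLCs and 35.03, 16.3 and 18.6% in pEpiLCs. The share of Fzd2 lay at 20.6, 22.7 and 20.5% in the 3 states. In pEpiLC replicate 1 Fzd10 had the largest share of any receptor, and in replicates 2 and 3 it ranked below Fzd7 and Fzd2.

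**Figure D3:**
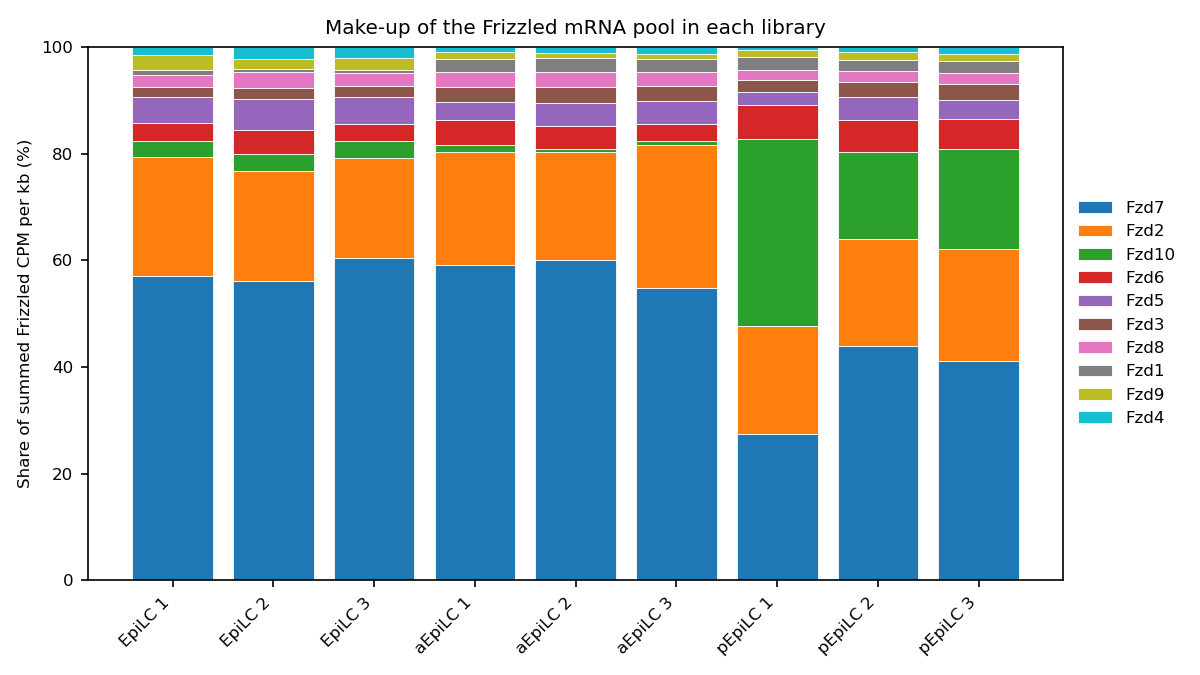
Share of each receptor (y axis, %) in the summed CPM per kb of the 10 Frizzled genes, as 1 stacked bar per library. Fzd7 and Fzd2 filled most of each EpiLC and aEpiLC bar, and Fzd10 took 35.03, 16.3 and 18.6% of the pEpiLC bars.

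The genes around the receptors were read from lists of the Wnt receptor pathway. Of all genes tested, 7.25% were called higher and 5.24% lower in aEpiLCs against EpiLCs, 7.71% and 8.13% in pEpiLCs against EpiLCs, and 2.55% and 4.74% in pEpiLCs against aEpiLCs. Some genes passed the filter on low counts only through the state where they were higher, in the sense that fewer than 3 libraries of the other state were at the level the filter asks for (0.458 to 0.464 CPM in 3 libraries). Their testing was not independent of a difference, so their calls are counted apart. Among the genes that passed through both states, 5.52% were called higher and 3.5% lower in aEpiLCs against EpiLCs, 6.03% and 5.63% in pEpiLCs against EpiLCs, and 2.08% and 3.92% in pEpiLCs against aEpiLCs. Among all genes that passed through 1 state only, 352 of 1577 were called higher and 321 lower in aEpiLCs against EpiLCs. The counts were 362 and 482 of 1766 in pEpiLCs against EpiLCs, and 102 and 183 of 1486 in pEpiLCs against aEpiLCs. All 10 Frizzled genes passed through both states in each comparison, as did all tested genes for planar polarity and all transducers.

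Among co-receptors and the Norrin system, 3 of 6 tested genes were called higher and 0 lower in aEpiLCs against EpiLCs. These were Tspan12, Adgra2 and Ndp, of which Ndp passed the filter only through aEpiLCs. The co-receptors Lrp5 and Lrp6, named after their values were seen, were not called in any comparison. Lrp5 had 127, 115 and 115 CPM in EpiLCs, aEpiLCs and pEpiLCs. Lrp6 had 80.8, 106 and 114 CPM, with log2 fold changes against EpiLCs of 0.37 and 0.49 (edgeR adjusted p = 0.000635 and 0.00410). Tspan12, a partner of Fzd4 in Norrin signalling, had 2.21 CPM in EpiLCs, 7.41 CPM in aEpiLCs and 5.78 CPM in pEpiLCs (means of 3). It rose against EpiLCs in both (log2 fold change 1.72 and 1.38, edgeR adjusted p = 1.48e-05 and 0.00225). Ndp, which encodes Norrin, had 0.512 CPM in EpiLCs and 1.49 CPM in aEpiLCs, and was at or under 3 counts in each pEpiLC library. Adgra2, which works with Reck in Wnt7 signalling, had 1.69 CPM in EpiLCs, rose to 4.58 CPM in aEpiLCs and fell to 0.600 CPM in pEpiLCs, and was called in all 3 comparisons. In pEpiLCs 1 of 5 tested genes of this list was called higher and 1 lower against EpiLCs, and 0 and 2 of 6 against aEpiLCs, where the call of Ndp again rested on aEpiLCs alone for the filter.

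Of the genes for receptor turnover, Rnf43, Lgr5, Rspo3 and Rspo4 were called higher in pEpiLCs against EpiLCs, and all 4 passed the filter only through pEpiLCs. Of the other 4 tested, 0 were called in either direction. Znrf3, 1 of these 4 and named after its values were seen, had 25.2 CPM in EpiLCs, 20.3 CPM in aEpiLCs and 38.9 CPM in pEpiLCs. Without a call it was higher in pEpiLCs than in EpiLCs (log2 fold change 0.62, edgeR adjusted p = 0.0151) and than in aEpiLCs (0.93, adjusted p = 0.0112). Lgr4, given below, went the other way against EpiLCs. Rnf43, a ligase that removes Frizzled from the membrane, had 0.436 CPM in EpiLCs and 1.72 CPM in pEpiLCs. Lgr5, a receptor for R-spondins, which protect Frizzled from that removal, had 0.512 CPM in EpiLCs and 2.02 CPM in pEpiLCs. Both were also called higher in aEpiLCs than in EpiLCs, Rnf43 at 1.34 CPM and Lgr5 at 1.09 CPM, where they passed the filter only through aEpiLCs. This call of Lgr5 was not made by DESeq2 (adjusted p = 0.0745), nor without aEpiLC replicate 2 or 3 or EpiLC replicate 1 or 2 (edgeR adjusted p up to 0.113). Between the later states the values were 0.35 for Rnf43 (edgeR adjusted p = 0.449) and 0.88 for Lgr5 (adjusted p = 0.0654). The R-spondin Rspo3 had 0.062 CPM in EpiLCs, 0.740 CPM in aEpiLCs, and 18.8, 4.64 and 3.96 CPM in pEpiLCs. Without pEpiLC replicate 1 its pEpiLC mean was 4.30 CPM in place of 9.12 CPM, and it was called against either other state in both fits. In aEpiLCs 3 of 7 were called higher (Rnf43 and Lgr5, which passed the filter only through aEpiLCs, and Lgr6) and 1 lower (Lgr4). Lgr4, the most abundant of these at 171 CPM in EpiLCs, fell to 56.7 CPM in aEpiLCs (log2 fold change -1.61 ± 0.09, edgeR adjusted p = 1.40e-08) and to 110.4 CPM in pEpiLCs (-0.64, adjusted p = 0.000618). Between the later states it was higher in pEpiLCs (0.95, edgeR adjusted p = 0.00118), without a call. Lgr6 rose from 1.12 to 2.92 CPM in aEpiLCs (edgeR adjusted p = 0.00136) and had 1.39 CPM in pEpiLCs. Against aEpiLCs, 1 of 8 was called higher in pEpiLCs (Rspo3, which passed the filter only through them) and 0 lower. Over the list, the counts called higher were 3 of 8 against EpiLCs and 1 of 8 against aEpiLCs without pEpiLC replicate 1.

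Secreted antagonists moved in both directions. Of the 9 that passed the filter through both states, 1 was called higher in pEpiLCs against EpiLCs (Apcdd1) and 1 lower (Sfrp4), and of the 5 that passed through 1 state only, 3 were called higher and 2 lower. Against aEpiLCs, 2 of 11 were called higher and 2 lower, and 1 of the 3 that passed through 1 state was called higher (Notum). Frzb, a secreted protein with a Frizzled-like domain, had 0.135 CPM in EpiLCs, 0.599 CPM in aEpiLCs, and 56.5, 3.51 and 2.65 CPM in pEpiLCs. Its pEpiLC mean of 20.9 CPM thus came mostly from replicate 1. Without that library the mean was 3.08 CPM and the log2 fold change against aEpiLCs 2.35 in place of 5.11, still called. Against EpiLCs, where Frzb passed the filter only through pEpiLCs, the fitted value went from 7.20 to 4.44. Apcdd1, an inhibitor at the membrane, had 4.59, 4.09 and 11.9 CPM, and Notum, which removes the lipid that Wnt ligands need, had 0.379, 0.384 and 2.46 CPM in the same order. Without pEpiLC replicate 1 the pEpiLC means were 8.67 CPM for Apcdd1, which was then no longer called against EpiLCs (log2 fold change 0.91), and 1.53 CPM for Notum. Notum was still called, but against either state it passed the filter only through pEpiLCs. The whole list then had 3 of 14 called higher and 3 lower against EpiLCs, in place of 4 and 3, and 4 higher and 2 lower against aEpiLCs, in place of 3 and 2. Sfrp4 fell in pEpiLCs (4.28 CPM) against EpiLCs (12.7 CPM, log2 fold change -1.57, edgeR adjusted p = 0.00505), and Sfrp1 was lower in pEpiLCs (6.30 CPM) than in aEpiLCs (19.4 CPM, log2 fold change -1.63, edgeR adjusted p = 0.000550). Sfrp1 and Sfrp4 are secreted Frizzled-related proteins that bind Wnts. In aEpiLCs against EpiLCs 0 of the 10 that passed the filter through both states were called higher and 1 lower, and 2 higher and 1 lower of the 3 that passed through 1 state. Shisa3, which holds back Frizzled on its way to the membrane, fell from 2.17 to 0.872 CPM (edgeR adjusted p = 0.00215), but not past the test with all 9 libraries in 1 fit (edgeR adjusted p = 0.0799).

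Partners in planar polarity and other signalling outside beta-catenin had 0 calls in the lower direction in each of the 3 comparisons, by edgeR and by DESeq2. By adjusted p alone, 2 of 12 were lower in pEpiLCs than in aEpiLCs, Ror1 (log2 fold change -0.85, edgeR adjusted p = 0.00375) and Celsr3 (-0.73, adjusted p = 0.00625), and 1 was lower than in EpiLCs, Celsr3 (-0.37, adjusted p = 0.0254). Of all genes, 9.3% and 21.4% were lower in these comparisons by adjusted p. At an unadjusted p below 0.05 these counts were 3 and 2, where 16.9% and 25.3% of all genes were lower. That for aEpiLCs against EpiLCs was 0, where 26.1% of all genes were lower. The value of Celsr2 between pEpiLCs and aEpiLCs was -1.03 without passing the test (edgeR adjusted p = 0.0940), although the libraries did not overlap. Celsr2 and Celsr3, planar polarity cadherins, were named after their values were seen. In pEpiLCs 4 of 12 were called higher against EpiLCs and 2 against aEpiLCs, and in aEpiLCs 3 of 12 were called higher. Ror2, a Wnt5a receptor, had 6.72 CPM in EpiLCs, 20.5 CPM in aEpiLCs and 57.1 CPM in pEpiLCs, and each of the 3 differences was called (edgeR adjusted p of at most 0.00108). Ror1 had 13.6 CPM in EpiLCs, 56.8 CPM in aEpiLCs and 31.6 CPM in pEpiLCs. Prickle1, a cytoplasmic planar polarity protein, rose from 14.6 CPM to 81.4 CPM in aEpiLCs and 98.0 CPM in pEpiLCs (log2 fold change 2.46 and 2.74, edgeR adjusted p = 2.06e-08 and 2.16e-05). Vangl1, a membrane protein of the same system, had 6.29 CPM in EpiLCs, 7.75 CPM in aEpiLCs, and 83.5, 27.4 and 23.6 CPM in pEpiLCs. Its pEpiLC mean was 25.5 CPM without replicate 1, in place of 44.8 CPM, and the calls of this list were as many, 4 against EpiLCs and 2 against aEpiLCs.

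The list of transducers holds cytoplasmic proteins and, besides them, the cell-surface glypican Gpc4. By adjusted p, 6 of 12 in this list rose and 2 fell in aEpiLCs against EpiLCs, where 24% and 22.6% of all genes did. In that comparison 2 of 12 were called higher, and the same 2 were called lower in pEpiLCs against aEpiLCs. These were Apc2, a relative of Apc (5.47 CPM in EpiLCs, 12.6 CPM in aEpiLCs and 3.21 CPM in pEpiLCs), and Gpc4 (28.6, 58.6 and 21.01 CPM). Between pEpiLCs and EpiLCs 0 of 12 were called by edgeR, with 5 rising and 2 falling by adjusted p, against 22.8% and 21.4% of all genes. At an unadjusted p below 0.05, 5 were higher and 3 lower, which 27.4% and 25.3% of all genes reached in these directions. Ctnnb1, which encodes beta-catenin, rose there from 656 to 903 CPM (log2 fold change 0.46 ± 0.05, edgeR adjusted p = 0.000420). It also rose in aEpiLCs, to 964 CPM (0.54 ± 0.05, edgeR adjusted p = 2.72e-06), and the value between the later states was -0.10 (adjusted p = 0.235). Csnk1a1, a kinase that primes beta-catenin for breakdown, had 345 CPM in EpiLCs and 346 CPM in pEpiLCs.

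Of the 18 ligands in the table, 4 passed the filter through both states in pEpiLCs against EpiLCs, and 3 of these were called higher and 0 lower. Another 6 had fewer than 3 EpiLC libraries at the filter's level (Wnt2b, Wnt4, Wnt5a, Wnt6, Wnt9b and Wnt11), of which 5 were called higher, and 8 were too low to be tested. Wnt4, which was not called, did not reach that level in every pEpiLC library either. Wnt3, needed for the primitive streak, had 4.70 CPM in EpiLCs, 2.59 CPM in aEpiLCs and 70.6 CPM in pEpiLCs, the same order of states as Fzd10. Wnt8a had 0.921, 8.10 and 101 CPM, and Wnt11 had 0.366, 0.231 and 10.05 CPM. Wnt5a had 0.222 CPM in EpiLCs, 1.37 CPM in aEpiLCs, and 13.6, 0.833 and 0.699 CPM in pEpiLCs, so that its pEpiLC mean of 5.04 CPM came mostly from replicate 1. Without that library the mean was 0.766 CPM and the fitted log2 fold change against EpiLCs 1.73 in place of 4.45. Against aEpiLCs the value, which was not called, went from 1.87 to -0.84. Wnt9b was called higher in pEpiLCs (2.48 CPM) than in aEpiLCs (0.123 CPM), where it passed the filter only through pEpiLCs. Against aEpiLCs, 3 of the 6 that passed through both states were called higher and 0 lower. Of the 5 that passed through 1 state, 3 were called higher and 1 lower, the last being Wnt4 (0.608 CPM in pEpiLCs and 2.42 CPM in aEpiLCs). In aEpiLCs against EpiLCs, 1 of the 4 that passed through both states was called higher (Wnt8a) and 0 lower, and 2 of the 5 that passed through 1 state were called higher (Wnt5a and Wnt4, at 0.464 CPM in EpiLCs).

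Among Tcf factors and feedback targets, 8 passed the filter through both states, and 3 of them were called higher and 1 lower in pEpiLCs against either other state. Sp5 and Cdx1 were called higher as well but passed the filter only through pEpiLCs. Axin2, a negative feedback target of beta-catenin, had 5.41 CPM in EpiLCs, 11.6 CPM in aEpiLCs and 131 CPM in pEpiLCs. Tnfrsf19 had 4.48, 19.5 and 76.6 CPM in the same order. Sp5 had 0.059 and 0.155 CPM in EpiLCs and aEpiLCs, and 206, 39.0 and 38.8 CPM in pEpiLCs. Cdx1 had 0.015 and 0.030 CPM, and then 16.9, 0.745 and 0.745 CPM, and Nkd1 had 4.202 and 3.86 CPM, and then 30.2, 7.76 and 9.92 CPM. Replicate 1 was the highest pEpiLC library of all 3 genes, and without it the pEpiLC means were 38.9 CPM for Sp5 in place of 94.5 CPM, 0.745 CPM for Cdx1 in place of 6.12 CPM and 8.84 CPM for Nkd1 in place of 16.0 CPM. The calls of this list were as many without it, 5 higher and 1 lower against either state. Tcf7l1, a repressor of Wnt targets in pluripotent cells, was the member that fell, from 134 CPM in EpiLCs and 119 CPM in aEpiLCs to 50.1 CPM (edgeR adjusted p = 0.00101 and 0.00524). In aEpiLCs 2 of 8 were called higher (Axin2 and Tnfrsf19) and 0 lower. Smo, the Hedgehog transducer related to the Frizzled receptors, had 73.7 CPM in EpiLCs, 114 CPM in aEpiLCs and 117 CPM in pEpiLCs, a rise that passed by adjusted p in both later states (0.62 and 0.66 on the log2 scale, edgeR adjusted p = 1.94e-06 and 0.00167) without a call.

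Some of these calls rested on the full set of libraries or on the tool. Between pEpiLCs and aEpiLCs, Rspo3, Frzb, Notum, Apcdd1, Sfrp4, Vangl1, Wnt4, Cdx1 and Nkd1 did not pass in the fits that left out any 1 aEpiLC library, with edgeR adjusted p up to 0.144, and Wnt9b did not pass without aEpiLC replicate 2. In the same comparison Sfrp4 did not pass without pEpiLC replicate 3 and fell short of the limit on fold change without replicate 1 (-0.97), and Wnt4 did not pass without pEpiLC replicate 2. Between pEpiLCs and EpiLCs, Wnt5a and Cdx1 were not called without any 1 EpiLC library, Ror1 not without EpiLC replicate 2, and Apcdd1 neither without pEpiLC replicate 1 nor with limma voom. Between aEpiLCs and EpiLCs, Gpc4 was not called without aEpiLC replicate 3, EpiLC replicate 2 or EpiLC replicate 3, and Axin2 not without EpiLC replicate 1. DESeq2 gave no adjusted p for Frzb and Cdx1 in both comparisons of pEpiLCs, nor for Wnt5a between pEpiLCs and EpiLCs. Leaving out pEpiLC replicate 1 also added the calls of Shisa3 (log2 fold change 1.84), Wnt6 (1.42) and Sostdc1 (-2.77) in pEpiLCs against aEpiLCs and of Ndp (-2.83) against EpiLCs, and removed that of the R-spondin Rspo4 against EpiLCs. The pEpiLC mean of Wnt6 was then 2.12 CPM in place of 5.64 CPM, and that of Sostdc1 0.0685 CPM in place of 0.620 CPM. Wnt2b, called higher in pEpiLCs against either state in both fits, had a mean of 1.45 CPM in place of 3.10 CPM. Another 4 genes of the lists, Dkk1, Wnt3a, Cer1 and Wnt2, had 28.0, 21.2, 5.46 and 3.54 CPM in pEpiLC replicate 1 and at most 0.605 CPM in any other library, and did not pass the filter for a test. Sostdc1, Wnt6, Rspo4, Wnt2b and these 4 were named after their values were seen.

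**Figure D4:**
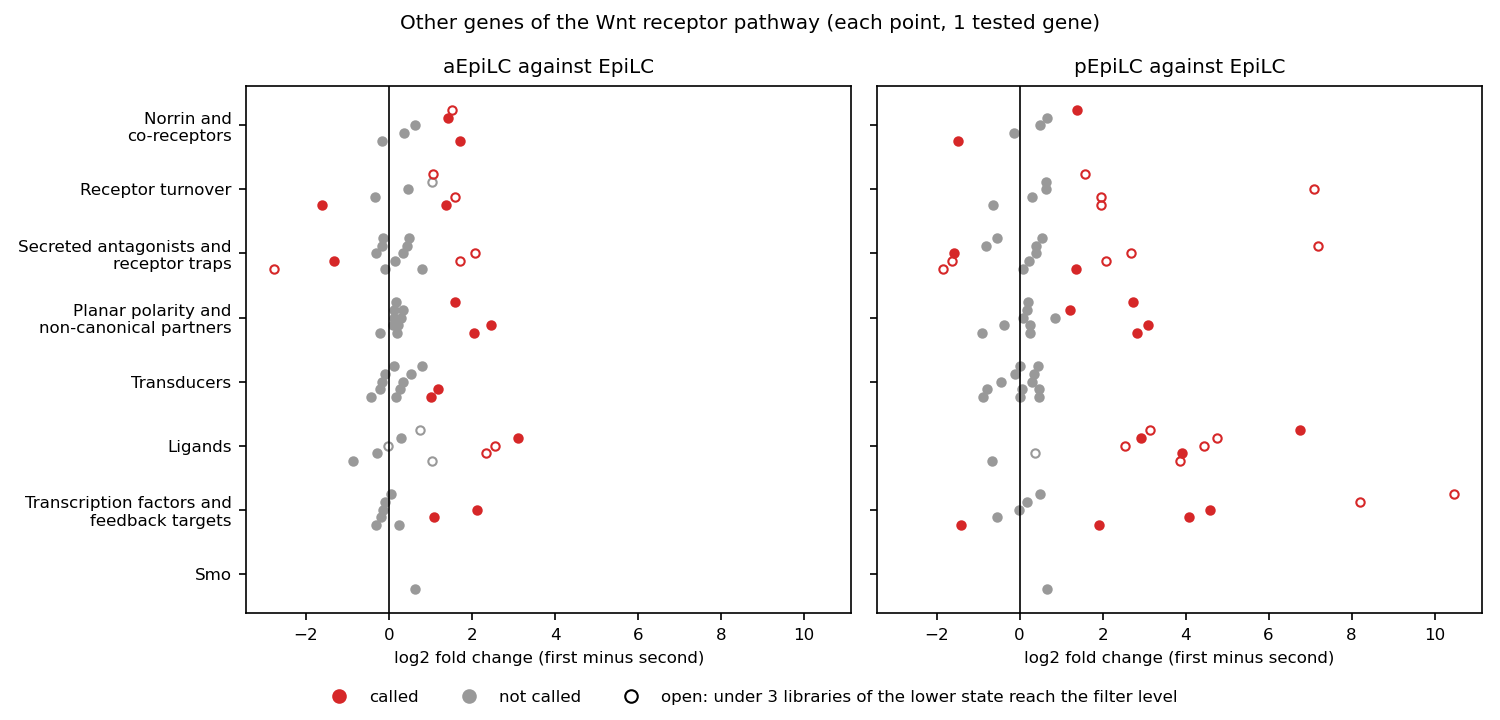
Fitted log2 fold changes against EpiLCs (x axis) of the tested genes in 8 lists of the Wnt receptor pathway, for aEpiLCs and pEpiLCs, with called genes in red and others in grey. Open circles mark genes with fewer than 3 libraries of the lower state at the level that the filter on low counts asks for. The points past 7 in pEpiLCs are Sp5, Cdx1, Frzb and Rspo3, all open, which had close to no counts in EpiLCs and whose fitted folds are not bounded well.

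The genes whose pattern over the 9 libraries was most like that of a called Frizzled gene were found by the root mean square difference of log2 CPM, each gene centred on its own mean, among 13655 genes with at least 1 CPM on average. Nearest to Fzd10 were Chrna9, a subunit of the nicotinic acetylcholine receptor (difference 0.33 on the log2 scale), Dapk2, a kinase (0.45), and Wnt3 (0.49). Chrna9 had 0.294 CPM in aEpiLCs, 0.601 CPM in EpiLCs and 5.39 CPM in pEpiLCs, and Dapk2 had 0.739, 1.19 and 11.5 CPM. As with Fzd10, the highest library of all 3 was pEpiLC replicate 1, with 7.95 CPM for Chrna9, 16.9 CPM for Dapk2 and 94.2 CPM for Wnt3. Nearest to Fzd1 were Gm27032 (0.20), Bves (0.23) and Alpk1 (0.24), with 2.66, 2.22 and 3.54 CPM in aEpiLCs, 0.583, 0.547 and 0.866 CPM in EpiLCs and 1.84, 1.76 and 2.74 CPM in pEpiLCs. These likenesses are descriptions over 9 libraries and were not tested. The genes were picked by likeness over these same libraries, so a shared order of states and a shared highest library follow from the choice.

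**Figure D5:**
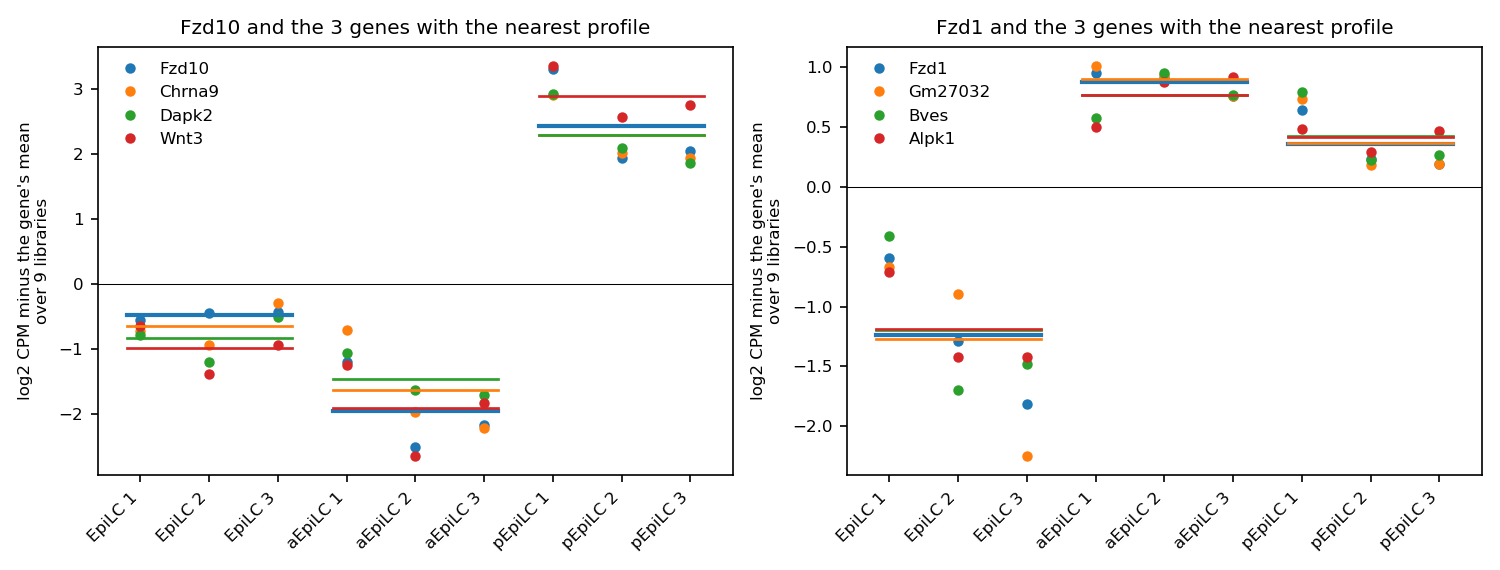
log2 CPM minus the gene's own mean over the 9 libraries (y axis) for Fzd10 and Fzd1 and the 3 genes with the nearest profiles, with points for libraries and lines for state means. The Fzd10 group was lowest in aEpiLCs and highest in pEpiLCs, and the Fzd1 group was lowest in EpiLCs and highest in aEpiLCs.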

How the data were processed

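The study's authors obtained paired-end 150 bp reads of mouse bulk RNA libraries, aligned these to GRCm38 with STAR 2.7.9a and deposited expected counts per gene symbol from RSEM 1.3.1, without normalization. The annotation, read cleaning and strandedness are not given in the sources used here. Expected counts (20.2% of values were not whole) were rounded. Positions and exon lengths came from GENCODE vM21 on GRCm38, where 22821 symbols (97.3%) matched 1 gene, and promoters from RefSeq.

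Each pair of states was fitted on its own 6 libraries with edgeR 4.0.16 in R 4.3.3 (TMM, filterByExpr, quasi-likelihood test, Benjamini-Hochberg adjustment over all genes tested). A call needed an adjusted p under 0.05 and a log2 fold change of 1 or more in size. The SE of a log2 fold change was derived from its F value. All 10 members passed the filter on low counts. The fits were tested on simulated data. Alternatives used RLE factors, DESeq2 1.42.0, edgeR's likelihood ratio test, limma 3.58.1 voom with quality weights, other filters, all 9 libraries in 1 fit, a replicate block, no limit on fold change, and each library left out.

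Named genes were all members and, from each pathway list, up to 4 called genes per direction with the largest fold changes among those with at least 1 CPM on average over the 6 libraries. Where none was called, up to 2 of the most abundant were named. The 3 nearest profiles were named for each called member. The members and lists were chosen with earlier results of these data known. Replicates differed by more than sampling noise and were all kept as separate samples. Counting precision follows the depth, and intervals given are for fitted fold changes. A further marker is not reported here.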

Additional observations from a re-analysis of the deposited data

How the results depend on the processing

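Over the alternatives, 378 member values kept their direction and side of the adjusted p, 21 lost it, 16 gained it and 5 changed sign. Fzd10 was called in all 15 settings of each comparison, with log2 fold changes of 3.87 to 4.94 (pEpiLC against aEpiLC), 2.47 to 3.29 (pEpiLC against EpiLC) and -1.90 to -1.16 (aEpiLC against EpiLC), and Fzd1 in all 15 of both comparisons with EpiLCs. The sign changes were in values near 0. Fzd2 between pEpiLC and EpiLC was -0.00897 with limma voom, -0.0356 without pEpiLC replicate 1 and -0.0236 without EpiLC replicate 3, with a range of -0.0356 to 0.144 over the libraries left out. Fzd5 between aEpiLC and EpiLC was 0.0253 without aEpiLC replicate 1 and 0.0211 without EpiLC replicate 2, with a range of -0.111 to 0.0253.

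With no limit on fold change, the genes passing were 2369, 6759 and 7130 for pEpiLC against aEpiLC, pEpiLC against EpiLC and aEpiLC against EpiLC, in place of 1108, 2421 and 1911. The Frizzled genes passing were then 5, 7 and 9 in place of 1, 2 and 2, and the pathway genes 50 and 40 in the latter comparisons in place of 31 and 21. With at least 10 counts in every library, which tests fewer genes, the pathway genes called were 16, 15 and 13 (25, 31 and 21 in the main fit), and 1259 genes were called between aEpiLC and EpiLC. Leaving out 1 library at a time, pEpiLC against aEpiLC gave 514 to 1148 genes, 1 to 2 Frizzled genes and 14 to 29 pathway genes, with the lowest counts of genes (648, 514 and 583) without aEpiLC replicates 1, 2 and 3 in turn. The cause was not tested.

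No label says whether same-numbered libraries shared a culture or batch. Their deviations correlated at 0.172, 0.117 and 0.0621 (pEpiLC with aEpiLC), 0.0256, 0.0336 and 0.0153 (pEpiLC with EpiLC), and 0.0209, -0.0571 and -0.0601 (aEpiLC with EpiLC). Libraries with unlike numbers gave -0.138 to 0.0579, -0.0467 to 0.0155 and -0.0223 to 0.0816 in the same order. For pEpiLC with aEpiLC every same-numbered value was thus above every other, and a shared origin was not tested. With the replicate block 1, 3 and 2 Frizzled genes were called in the 3 comparisons. No scaling moved the median of all genes by over 0.1. The block gave 1123, 2299 and 1878 genes called. Each member was above 3 counts in every library, and counting error was widest where counts were lowest, for Fzd1 in EpiLCs (38 at the lowest), Fzd10 in aEpiLCs (43) and Fzd9 in aEpiLCs (48).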
